A study of Mus musculus with 12 samples.

Results

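The genes described here are 36 genes of the cellular response to low oxygen and of glycolysis, listed by name, and their values are those of every probe set of the array that the platform's annotation assigns to them. The annotation held 34 of the 36, out of 18193 genes named on the array, and neither Gpi1 nor Eno1 was among its symbols. Bnip3l was present only on probe sets shared with its pseudogene, which left 33 genes with a probe set of their own. Of these, 31 passed the filter on dim probe sets and were tested, and P4ha2 and Adm did not.

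The cells were mouse bone marrow from 5-fluorouracil-treated F1 hybrids of the strains C57Bl/6Ly-Pep3b and C3H/HeJ. All 4 groups carried the leukaemia fusion gene NUP98-HOXD13, delivered by a retrovirus with GFP or a pac resistance gene, and had been kept in liquid culture for 4 weeks with 15% serum and 3 growth factors, in ng/ml 10 of human IL-6, 6 of murine IL-3 and 100 of murine SCF (stem cell factor). A second retrovirus with YFP was added by 2 days of growth on irradiated E86 producer cells in protamine sulfate. It held no further gene in the control (the MIY vector), wild-type MEIS1 in MEIS1-WT, a form lacking the DNA-binding homeodomain in MEIS1-deltaHD, and a fusion called M33-MEIS1 in the last group, M33 being the mouse Polycomb protein Cbx2. RNA came from sorted cells, with 3 arrays per group, and the series text calls the experiments of a condition independent. The labels do not say whether these began from separate NUP98-HOXD13 lines, so p-values measure the spread between these 12 arrays, whose number limits the precision. The sources used here give neither the age of the mice nor the oxygen level or cell density at harvest.

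Hypoxia-inducible factors (HIFs) are pairs of an oxygen-labile alpha subunit, such as Hif1a, and the stable partner Arnt. In the presence of oxygen the prolyl hydroxylases of the Egln family mark the alpha subunit for destruction through Vhl, and when oxygen falls the pair binds a short core in DNA and switches on genes for glucose uptake, glycolysis, blood vessel growth and mitophagy. Egln3 is itself a target of the pathway and brakes it. Glycolysis cuts glucose into pyruvate, which Ldha turns into lactate or which enters the mitochondrion unless the Pdk kinases close that door. Growing blood progenitors use much glycolysis also when oxygen is present, and mRNA of Hif1a does not measure its protein.

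The promoters of 5 genes that were higher with every construct, and of Vegfa, which was lower with every one, chosen after their values were seen, are printed as examples with and without the HIF core next to their start. All 5 of these higher genes hold ACGTG. Tpi1, Pfkl and Pkm, also higher with every construct, hold none in the window farthest upstream and are not printed. The printed set is therefore no comparison of higher with lower genes. The sequences are RefSeq's on GRCm38.p6, 250 bases before the start of the transcript and read 5′ to 3′ along the gene, and capitals mark ACGTG or GCGTG on either strand (read as CACGT or CACGC on the other).
Egln3, chr12:54203875-54204124, minus strand: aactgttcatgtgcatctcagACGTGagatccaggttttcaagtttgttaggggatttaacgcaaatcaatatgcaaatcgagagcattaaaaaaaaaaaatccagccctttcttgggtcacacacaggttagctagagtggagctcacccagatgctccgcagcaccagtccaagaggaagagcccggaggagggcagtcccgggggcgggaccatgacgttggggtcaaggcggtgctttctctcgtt
Bnip3, chr7:138909507-138909756, minus strand: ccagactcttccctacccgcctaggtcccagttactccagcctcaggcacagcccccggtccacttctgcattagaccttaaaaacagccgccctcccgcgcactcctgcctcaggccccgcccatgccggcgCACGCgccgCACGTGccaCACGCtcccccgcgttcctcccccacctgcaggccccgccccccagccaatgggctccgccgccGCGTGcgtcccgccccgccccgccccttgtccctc
Ankrd37, chr8:45999851-46000100, minus strand: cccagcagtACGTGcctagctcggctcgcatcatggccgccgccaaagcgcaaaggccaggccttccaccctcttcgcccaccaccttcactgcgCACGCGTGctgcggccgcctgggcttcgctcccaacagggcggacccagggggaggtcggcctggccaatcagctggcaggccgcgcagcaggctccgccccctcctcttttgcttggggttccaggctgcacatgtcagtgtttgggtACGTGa
Ldha, chr7:46845554-46845803, plus strand: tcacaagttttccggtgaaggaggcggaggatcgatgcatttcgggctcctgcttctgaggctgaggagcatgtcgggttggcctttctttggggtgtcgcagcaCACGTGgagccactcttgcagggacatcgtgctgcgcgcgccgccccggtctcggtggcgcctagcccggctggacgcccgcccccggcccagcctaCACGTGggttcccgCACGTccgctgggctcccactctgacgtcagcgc
Pgam1, chr19:41911621-41911870, plus strand: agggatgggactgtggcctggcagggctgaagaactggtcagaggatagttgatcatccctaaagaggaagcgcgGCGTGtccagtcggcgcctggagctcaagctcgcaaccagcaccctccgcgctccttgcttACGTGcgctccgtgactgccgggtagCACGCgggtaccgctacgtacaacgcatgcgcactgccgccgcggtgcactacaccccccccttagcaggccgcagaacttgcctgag
Vegfa, chr17:46032378-46032627, minus strand: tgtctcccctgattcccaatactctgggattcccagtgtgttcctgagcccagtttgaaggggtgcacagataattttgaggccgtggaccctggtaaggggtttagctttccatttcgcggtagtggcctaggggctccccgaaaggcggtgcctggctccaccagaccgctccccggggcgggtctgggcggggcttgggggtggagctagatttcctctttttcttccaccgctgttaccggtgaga
Counted on each strand, ACGTG stood in these windows 5 times for Ldha, 2 times each for Bnip3 and Ankrd37, and 1 time each for Egln3 and Pgam1, and the Vegfa window printed held neither core. A stretch of CACGTG reads as ACGTG on both strands and so counts 2 times. Ldha held 2 such stretches, Bnip3 1 and Ankrd37 0, so for Ldha and Bnip3 the separate stretches are fewer than these counts. A further RefSeq start of Vegfa has 1 ACGTG and 1 GCGTG in its window (chr17:46025164-46025413, not printed). A table of RefSeq promoters held 32 of the 36 genes, and Bhlhe40, Slc2a3, Ndrg1 and Bnip3l had no entry in it. Of these 32, 16 held ACGTG (50%), against 20.8% of 11301 genes measured on the arrays and 16.5% of all 27025 promoters, with 1 window per gene, the one farthest upstream. Among the 11 genes called higher with all 3 constructs, 8 held it (72.7%): Egln1, Egln3, Slc2a1, Pgam1, Ldha, Pdk3, Bnip3 and Ankrd37. Tpi1, Pfkl and Pkm held no ACGTG in that window, and a further window of Pkm held 1. The remaining holders were not higher with all 3 constructs. They were Hif1a (lower with MEIS1-deltaHD), Pfkfb3 (lower with MEIS1-WT), P4ha1 (higher with MEIS1-WT and M33-MEIS1), Hk2, Pgk1, Slc16a3 and Car9 (not called) and P4ha2 (not measured). Of the genes lower with all 3 constructs only 1, Vegfa, had a promoter there, so higher and lower genes cannot be compared for the core. GCGTG or ACGTG stood in 78.1% of the 32, in 81.8% of the 11 and in 53.7% of the measured genes. CACGTG, which contains ACGTG on both strands, stood in 9.38% of the 32 and in 7.93% of the measured genes, and TGACAG, the core that Meis proteins are known to bind, in 6.25% and 14.2%. The windows also differed in composition, with a median of 15 CG dinucleotides in the 32, 21 in the 11 and 14 in the measured genes. Its part in these shares was not tested, and a match is a description, not a site of binding.

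Against the control vector more of the 31 measured genes were higher than lower with each construct, and the same 11 passed as higher with all 3: the oxygen sensors Egln1 and Egln3, the glucose carrier Slc2a1, the glycolytic enzymes Pfkl, Tpi1, Pgam1, Pkm and Ldha, the pyruvate gatekeeper Pdk3, the mitophagy receptor Bnip3 and the ankyrin protein Ankrd37. Another 4 fell with all 3: the angiogenic factor Vegfa, the stress protein Ndrg1, the transcription factor Bhlhe40 and the glucose carrier Slc2a3. The 3 comparisons share the 3 control arrays, so their calls are not independent of each other. The share of all features called the same way with all 3 was not computed, so the 11 and the 4 have no background beside them. Genes passed at an adjusted p below 0.05 from limma over 19990 features, with differences given as log2(signal + 16) and folds as ratios of mean signals.

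With MEIS1-WT, 13 of the 31 were called higher (background 13.3% of all features) and 6 lower (19.4%), and the arrays did not overlap for 23 (42.9%). With MEIS1-deltaHD, 11 were higher (13.8%), 7 lower (22.7%) and 21 without overlap (48.2%). With M33-MEIS1, 14 were higher (12.4%), 4 lower (18.3%) and 20 without overlap (40%). As percentages of the 31, the higher calls were 41.9, 35.5 and 45.2 in that order, and the lower calls 19.4, 22.6 and 12.9. Lower calls were thus no more frequent in the 31 than among all features. The median difference of the 31 was 0.17, -0.01 and 0.22, and that of all features was -0.12, -0.17 and -0.13. That downward shift of all features turns on scaling: setting each array to its median raised the all-feature median by 0.19, 0.25 and 0.19 and the share of higher calls among all calls from 40.7%, 37.8% and 40.3% to 67.5%, 70.7% and 69.9%. Quantile normalization raised the median by 0.14, 0.16 and 0.13 and that share to 51.2%, 49.7% and 51.1%. The 11 higher and 4 lower genes were called the same way under both scalings in all 3 comparisons, except Pdk3 with MEIS1-WT under quantile normalization.

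**Figure D1:**
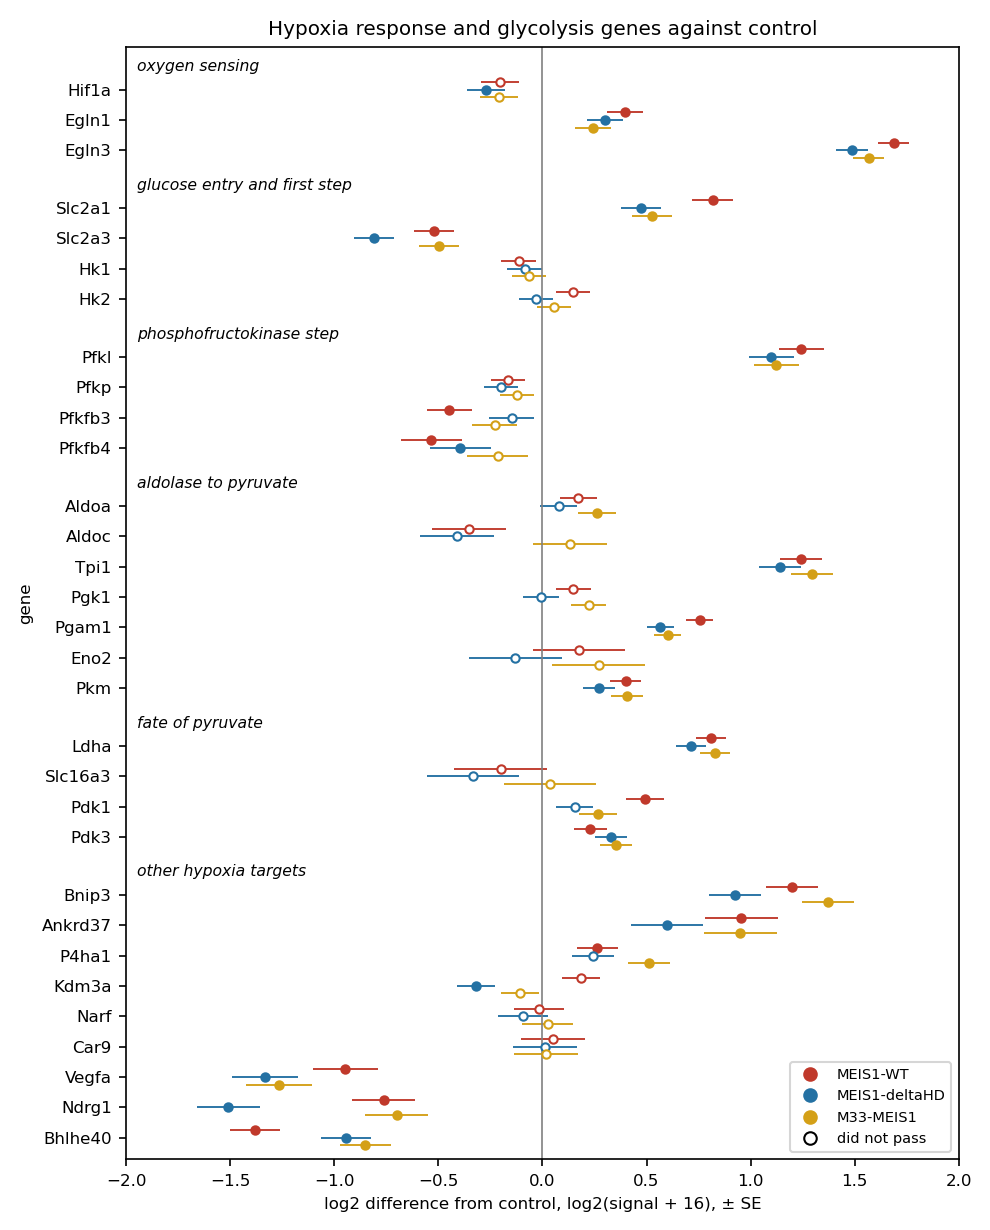
Log2 difference of each of the 31 measured genes from control (x axis, log2(signal + 16), bars ± SE of the model) by role, with 1 colour per construct and filled points for those that passed. Egln3, Tpi1, Pfkl and Bnip3 lie farthest to the right and Ndrg1, Bhlhe40 and Vegfa farthest to the left with every construct.

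Among the oxygen-sensing genes, Egln3, the hydroxylase that is also a HIF target, had the largest difference of the 31. Its signals were 279.7, 278 and 310.2 in control, 947, 965 and 986 for MEIS1-WT, 807, 824 and 888 for MEIS1-deltaHD and 853, 874 and 939 for M33-MEIS1. The construct arrays did not overlap the control arrays, and the MEIS1-WT arrays were the highest of all. Egln3 was 3.34-fold higher with MEIS1-WT (log2 difference 1.69 ± 0.075 (SE), adjusted p = 9.45e-15), 2.90-fold with MEIS1-deltaHD (1.49 ± 0.075, adjusted p = 1.71e-13) and 3.07-fold with M33-MEIS1 (1.57 ± 0.075, adjusted p = 1.12e-13). Its other probe set was also higher with every construct.

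Egln1, the main oxygen-dependent hydroxylase of HIF, changed less. Its mean signal was 208 ± 1.36 in control (SD, n = 3), 279 ± 10.3 for MEIS1-WT, 261 ± 20.7 for MEIS1-deltaHD and 249 ± 6.30 for M33-MEIS1, with log2 differences of 0.40, 0.30 and 0.24 (adjusted p = 0.000741, 0.00757 and 0.0344). The MEIS1-deltaHD call was lost without MEIS1-deltaHD replicate 3 (0.24), and the M33-MEIS1 call was lost when any 1 of the control or M33-MEIS1 arrays was left out (0.22 to 0.26), with no intensity trend and with only these groups fitted. Hif1a, the oxygen-labile subunit itself, was slightly lower on the probe set used: 1221 ± 9.17 in control, 1065 ± 135, 1008 ± 10.8 and 1061 ± 145 with the constructs in the same order. It passed as lower with MEIS1-deltaHD alone (-0.27 ± 0.091, adjusted p = 0.0205), a call that was lost under median scaling (-0.02), without MEIS1-deltaHD replicate 2 (-0.26), without the probe set types that can be shared (-0.24) and with no intensity trend. With MEIS1-WT and M33-MEIS1 the differences were -0.20 and -0.21 (adjusted p = 0.0934 and 0.0891), and both passed under quantile normalization (-0.33 each). Without the probe set types that can be shared, Hif1a stood at 0.01 and 0.09 with these 2 constructs and did not pass. Its other 3 kept probe sets passed in no comparison with control.

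The glucose carriers and hexokinases stand at the entry of the pathway, and the 2 carriers moved in opposite directions. Slc2a1 (GLUT1), the carrier of most growing cells, had signals of 482, 494 and 478 in control, 890.3, 831 and 879.9 for MEIS1-WT, 608, 617 and 836 for MEIS1-deltaHD and 764, 722 and 637 for M33-MEIS1. No construct array overlapped the controls, and MEIS1-deltaHD replicate 3 stood well above the other MEIS1-deltaHD arrays. Slc2a1 rose 1.79-fold, 1.42-fold and 1.46-fold under MEIS1-WT, MEIS1-deltaHD and M33-MEIS1 (log2 differences 0.82, 0.47 and 0.53, adjusted p = 3.56e-07, 0.000418 and 0.000174), on all 3 of its probe sets. Slc2a3 (GLUT3), a carrier of high affinity for glucose found in neurons and blood cells, had signals of 550.1, 512 and 558 in control, 361, 396 and 358 for MEIS1-WT, 303, 268 and 336 for MEIS1-deltaHD and 338, 368 and 435 for M33-MEIS1. Here every construct array lay below every control array. It fell by 0.52, 0.81 and 0.50 on the log2 scale (adjusted p = 0.000136, 3.47e-07 and 0.000286), on 2 of its 4 kept probe sets; the other 2 were dim and did not pass, so without the probe set types that can be shared no Slc2a3 call was left. The hexokinases Hk1 and Hk2, which trap glucose as its phosphate, did not pass, with log2 differences of -0.11, -0.09 and -0.07 for Hk1 and 0.15, -0.03 and 0.05 for Hk2, though Hk2 passed as higher with MEIS1-WT (0.34) and M33-MEIS1 (0.24) under median scaling. Under quantile normalization the M33-MEIS1 difference of Hk2 changed sign (-0.06) and did not pass.

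Phosphofructokinase commits sugar to glycolysis, and here the liver-type subunit Pfkl and the enzymes that tune it went different ways. Pfkl had signals of 322, 293 and 414 in control, 838, 806 and 833 for MEIS1-WT, 709.7, 667 and 875 for MEIS1-deltaHD and 719, 715 and 849 for M33-MEIS1. The lowest construct array stood well above control replicate 3, the highest of the controls. Pfkl was 2.41-fold, 2.19-fold and 2.22-fold higher under MEIS1-WT, MEIS1-deltaHD and M33-MEIS1 (log2 differences 1.24, 1.1 and 1.12, adjusted p = 1.87e-09, 1.68e-08 and 1.75e-08). Another probe set was also higher (1.08, 0.91 and 1.06), and a further, dim one did not pass (-0.30, -0.38 and 0.01). The platelet-type subunit Pfkp did not pass, at -0.16, -0.20 and -0.12, but passed as lower with all 3 constructs under quantile normalization (-0.28, -0.33 and -0.24). Under median scaling its differences changed sign (0.03, 0.06 and 0.06) and did not pass, so the direction for Pfkp turns on the scaling.

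Pfkfb3 and Pfkfb4 make fructose 2,6-bisphosphate, the activator of phosphofructokinase. Pfkfb4 had signals of 78.1, 76.1 and 71.7 in control, 53.6, 52.4 and 36.7 for MEIS1-WT, 46.9, 54.4 and 59.4 for MEIS1-deltaHD and 51.8, 69.98 and 67.5 for M33-MEIS1. All construct arrays lay below the controls, with those of M33-MEIS1 reaching closest. It fell by 0.53 with MEIS1-WT and by 0.40 with MEIS1-deltaHD (adjusted p = 0.00627 and 0.0374) and did not pass with M33-MEIS1 (-0.21, adjusted p = 0.294). The MEIS1-WT call was lost without MEIS1-WT replicate 3 (-0.40) and under quantile normalization (-0.37) or median scaling (-0.34). The MEIS1-deltaHD call was lost under both scalings (-0.22 and -0.14), with no filter, without any 1 control array and without MEIS1-deltaHD replicate 1 or 2 (-0.32 to -0.42). Pfkfb3 fell with MEIS1-WT alone (-0.45 ± 0.11, adjusted p = 0.00212), from 171 ± 9.09 to 122 ± 15.5, and stood at 153 ± 12.4 and 144 ± 11.7 with the other constructs. That call was lost under median scaling (-0.26), and the test of MEIS1-WT against MEIS1-deltaHD did not pass for Pfkfb3 (adjusted p = 0.128).

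**Figure D2:**
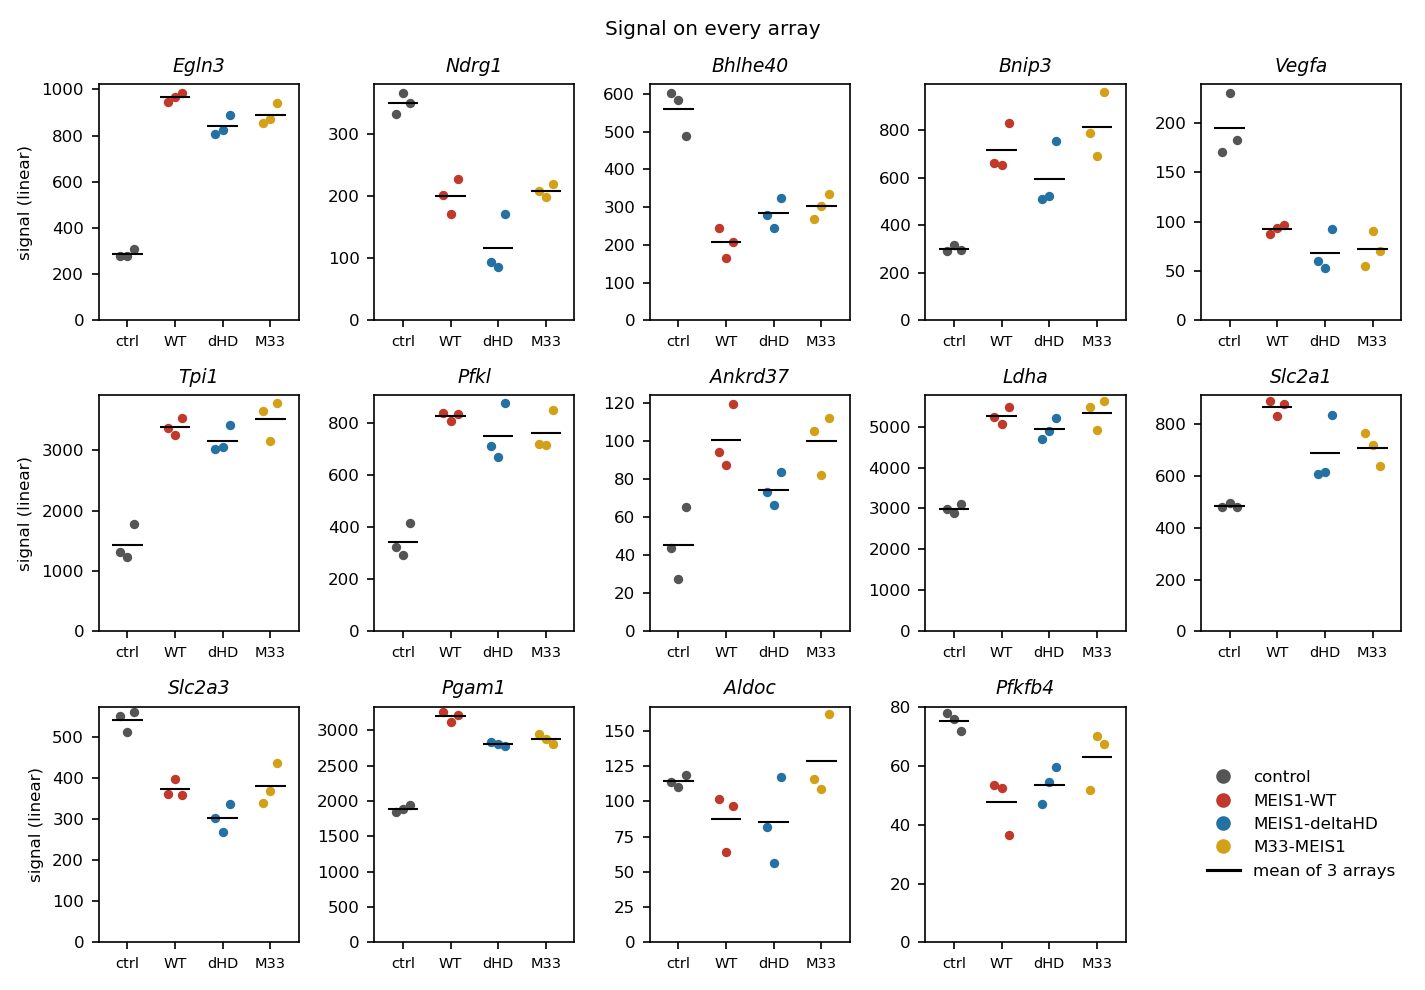
Linear signal (y axis, from 0) of each array as points, with the mean of 3 arrays as a line, for the 14 genes with the largest differences; ctrl, WT, dHD and M33 are control, MEIS1-WT, MEIS1-deltaHD and M33-MEIS1. Control and construct arrays are apart for every gene shown except Aldoc, whose control arrays overlap those of MEIS1-deltaHD and M33-MEIS1.

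Of the 7 enzymes from aldolase to pyruvate kinase, Tpi1, Pgam1 and Pkm rose with every construct, Aldoa passed with 1 of them, and Aldoc, Pgk1 and Eno2 passed with none. Tpi1, which interconverts the triose phosphates, had signals of 1313, 1235 and 1772 in control, 3365, 3250.2 and 3532 for MEIS1-WT, 3019.8, 3051 and 3415 for MEIS1-deltaHD and 3646, 3155 and 3781 for M33-MEIS1. Every construct array was far above control replicate 3, the highest control. Tpi1 was 2.35-fold, 2.20-fold and 2.45-fold higher (log2 differences 1.24, 1.14 and 1.30, adjusted p = 5.84e-10, 2.89e-09 and 5.05e-10), and all 3 of its probe sets passed with each construct.

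Pgam1, the phosphoglycerate mutase, had signals of 1850.1, 1883 and 1942 in control, 3269, 3116 and 3224 for MEIS1-WT, 2842, 2805 and 2779 for MEIS1-deltaHD and 2947, 2873 and 2813 for M33-MEIS1. The groups were tight, and the lowest construct array was well above the highest control. It was 1.69-fold, 1.48-fold and 1.52-fold higher (log2 differences 0.75, 0.57 and 0.60, adjusted p = 1.39e-09, 1.72e-07 and 9.63e-08). Pkm, the pyruvate kinase of growing tissue, rose from a mean of 2465 ± 219 to 3250.1 ± 150.1, 2974 ± 126 and 3266 ± 156, or by 0.40, 0.27 and 0.41 on the log2 scale (adjusted p = 0.000163, 0.00577 and 0.000165). The array does not show which splice form of Pkm was made.

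Aldoc, a brain-type aldolase, had signals of 114, 110.3 and 119 in control, 102, 64.2 and 96.4 for MEIS1-WT, 81.7, 56.5 and 117 for MEIS1-deltaHD and 115, 109 and 162 for M33-MEIS1. The MEIS1-WT arrays lay below the controls, and those of MEIS1-deltaHD and M33-MEIS1 overlapped them. Its differences of -0.35, -0.41 and 0.13 did not pass (adjusted p = 0.139, 0.0749 and 0.616). Aldoa, the muscle and general aldolase, passed with M33-MEIS1 alone (0.26 ± 0.090, adjusted p = 0.0284), from 3295 ± 416 to 3940.4 ± 305. That call was lost without control replicate 1 (0.26), control replicate 2 (0.17) or M33-MEIS1 replicate 3 (0.20), with no filter, with no intensity trend and with only these groups fitted. Under median scaling Aldoa also passed with MEIS1-WT (0.36) and MEIS1-deltaHD (0.33). The 5 probe sets of Aldoa disagreed: with M33-MEIS1 they ranged from -0.29 to 0.41, 3 called higher and 1 lower, with MEIS1-deltaHD from -0.33 to 0.30, 1 called higher and 1 lower, and with MEIS1-WT from -0.22 to 0.38, 2 called higher. Pgk1, which makes the first ATP of the pathway, did not pass, at 0.15, -0.01 and 0.22 (adjusted p = 0.198, 0.962 and 0.0506), but passed as higher with MEIS1-WT and M33-MEIS1 under quantile normalization (0.21 and 0.23) and median scaling (0.34 and 0.41). The 3 probe sets of Pgk1 disagreed in direction. They ranged from -0.13 to 0.37 with MEIS1-WT and from -0.10 to 0.39 with M33-MEIS1, none called. With MEIS1-deltaHD they ranged from -0.30 to 0.08, 1 called lower. Eno2, the neuronal enolase, was near the background at mean signals of 6.87, 9.80, 5.02 and 11.6 in control, MEIS1-WT, MEIS1-deltaHD and M33-MEIS1.

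At the end of the pathway pyruvate is turned to lactate or sent to the mitochondrion, and Ldha, which makes lactate, rose with every construct. Its signals were 2985, 2887 and 3117 in control, 5244, 5060.5 and 5469 for MEIS1-WT, 4695, 4886 and 5208 for MEIS1-deltaHD and 5471, 4914 and 5621 for M33-MEIS1. All construct arrays were above all control arrays by a wide margin. Ldha was 1.76-fold, 1.65-fold and 1.78-fold higher (log2 differences 0.81, 0.71 and 0.83, adjusted p = 2.92e-09, 2.52e-08 and 3.40e-09). Slc16a3 (MCT4), which exports lactate and is a HIF target, was dim, at mean signals of 19.3, 14.6, 13.1 and 20.1, and did not pass.

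Pdk1 and Pdk3 are kinases that shut off pyruvate dehydrogenase. Pdk3 rose from 405 ± 20.4 to 478 ± 19.4, 514 ± 25.6 and 522 ± 17.1 (log2 differences 0.23, 0.33 and 0.35, adjusted p = 0.0235, 0.00142 and 0.001). Its MEIS1-WT call was lost without control replicate 2 or 3 or MEIS1-WT replicate 1 or 3 (0.20 to 0.23) and under quantile normalization (0.17) or with no intensity trend. Pdk1 rose with MEIS1-WT (0.49 ± 0.091, adjusted p = 0.000135) and M33-MEIS1 (0.26 ± 0.091, adjusted p = 0.0292), from 402 ± 15.2 to 573 ± 36.7 and 486 ± 29.7, and did not pass with MEIS1-deltaHD at 452 ± 64 (0.15, adjusted p = 0.197). The M33-MEIS1 call was lost without control replicate 1 or 2 or M33-MEIS1 replicate 1 or 2 (0.22 to 0.27), under quantile normalization (0.23) and with no intensity trend. Under median scaling Pdk1 also passed with MEIS1-deltaHD (0.41). Its 4 probe sets differed: another one was higher with all 3 constructs (0.92, 0.81 and 0.92), and a dim one was at -0.19, -0.23 and -0.14 and did not pass.

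The other HIF targets split into genes that rose and genes that fell. Bnip3, a mitophagy receptor of the outer mitochondrial membrane, had signals of 291, 317 and 295 in control, 663, 654 and 829.5 for MEIS1-WT, 509, 524 and 752 for MEIS1-deltaHD and 787, 690.4 and 958 for M33-MEIS1. The construct arrays did not overlap the controls, and replicate 3 was the highest of each construct. Bnip3 was 2.38-fold, 1.98-fold and 2.70-fold higher (log2 differences 1.2, 0.93 and 1.37, adjusted p = 4.19e-08, 2.24e-06 and 7.26e-09). The probe sets shared by its relative Bnip3l and the pseudogene Bnip3l-ps passed in none of the comparisons, with 0.20, 0.04 and 0.16 for the brightest (adjusted p = 0.113, 0.789 and 0.223).

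Ankrd37, an ankyrin-repeat protein of unclear role that HIF induces in many cell types, had signals of 43.9, 27.5 and 65.3 in control, 94.5, 87.3 and 119 for MEIS1-WT, 73.3, 66.5 and 83.9 for MEIS1-deltaHD and 105, 82.3 and 112 for M33-MEIS1. The lowest MEIS1-deltaHD array was only just above control replicate 3. Ankrd37 was 2.20-fold, 1.64-fold and 2.19-fold higher (log2 differences 0.96, 0.60 and 0.95, adjusted p = 0.000119, 0.00871 and 0.000159). The MEIS1-deltaHD call was lost without control replicate 2 (0.37, adjusted p = 0.0841). P4ha1, a collagen prolyl hydroxylase, rose with M33-MEIS1 from 188 ± 25.2 to 274 ± 14.03 (0.51 ± 0.10, adjusted p = 0.000304) and with MEIS1-WT to 228 ± 22.3 (0.26 ± 0.10, adjusted p = 0.0454). The second of these calls was lost without control replicate 1 or 2 or MEIS1-WT replicate 1 or 3 (0.19 to 0.27), with no filter, with no intensity trend, with all kept probe sets tested singly and with only these groups fitted. Its difference with MEIS1-deltaHD was 0.24 (adjusted p = 0.0611), which passed under quantile normalization (0.28) and median scaling (0.50).

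Vegfa, the growth factor of blood vessels and among the best known HIF targets, went the other way. Its signals were 171, 230.02 and 183 in control, 87.97, 93.3 and 96.6 for MEIS1-WT, 60.2, 53.5 and 92.1 for MEIS1-deltaHD and 55.5, 90.7 and 70.6 for M33-MEIS1. Every construct array was below every control array. Vegfa was 2.10-fold, 2.84-fold and 2.69-fold lower under MEIS1-WT, MEIS1-deltaHD and M33-MEIS1 (log2 differences -0.95, -1.33 and -1.26, adjusted p = 4.06e-05, 3.35e-07 and 1.03e-06), and both of its probe sets passed.

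Ndrg1, a stress and differentiation protein, had signals of 331, 365 and 350.2 in control, 202, 171 and 228 for MEIS1-WT, 93.5, 86.3 and 171 for MEIS1-deltaHD and 208, 199 and 219 for M33-MEIS1. The construct arrays lay below the controls, with MEIS1-deltaHD replicates 1 and 2 the lowest of all and replicate 3 at the level of the lowest MEIS1-WT array. Ndrg1 was 1.74-fold, 2.98-fold and 1.67-fold lower (log2 differences -0.76, -1.51 and -0.70, adjusted p = 0.000306, 2.39e-08 and 0.000892), on all 5 of its probe sets with each construct. Bhlhe40, a transcriptional repressor of the clock and of differentiation, had signals of 603, 584 and 489 in control, 246, 166 and 207 for MEIS1-WT, 280.2, 246 and 325 for MEIS1-deltaHD and 269, 303 and 336 for M33-MEIS1. Control and construct arrays did not overlap, and MEIS1-WT reached lowest, its highest array standing level with the lowest of MEIS1-deltaHD. It was 2.71-fold, 1.97-fold and 1.85-fold lower (log2 differences -1.38, -0.94 and -0.85, adjusted p = 2.35e-09, 1.13e-06 and 6.58e-06).

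Kdm3a, a histone demethylase induced by HIF, stood at 427 ± 42.1 in control, 485 ± 10.6 for MEIS1-WT, 339 ± 41.1 for MEIS1-deltaHD and 393 ± 21.04 for M33-MEIS1. It fell by 0.32 with MEIS1-deltaHD (adjusted p = 0.00801), a call that was lost under median scaling (-0.06) and without MEIS1-deltaHD replicate 2 (-0.23), and the differences of 0.18 with MEIS1-WT and -0.11 with M33-MEIS1 did not pass, the first of them passing under median scaling (0.37). Car9, the carbonic anhydrase often used as a marker of hypoxic tissue, had mean signals of 48.1, 50.5, 49.4 and 49.04 and differed by 0.05, 0.01 and 0.02, none of which passed. Narf did not pass on the probe set used (-0.02, -0.09 and 0.02), while 1 of its 3 probe sets was higher with all 3 constructs (0.66, 0.66 and 0.69). P4ha2 and the vasodilator peptide Adm had no value past the filter, with signals from 0.342 to 5.87 for P4ha2 and from 0.532 to 11.1 over the 2 probe sets of Adm.

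**Figure D3:**
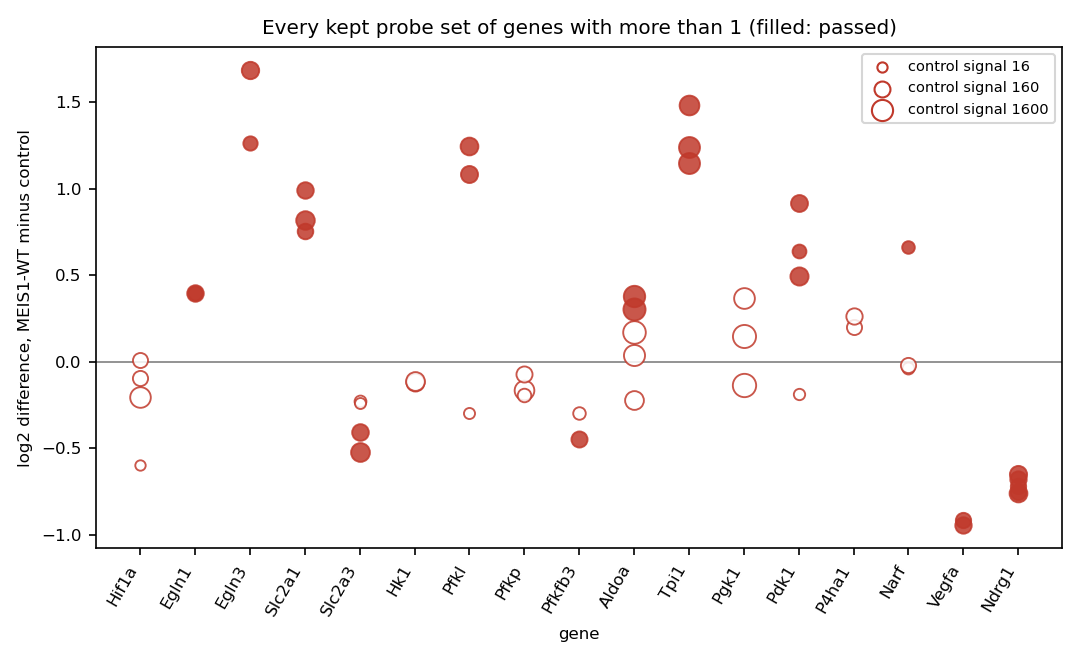
Log2 difference of MEIS1-WT from control (y axis, log2(signal + 16)) for every kept probe set of the 17 genes that had more than 1, each tested singly, with larger circles for a higher control signal and filled circles for those that passed. All probe sets of Ndrg1, Tpi1, Slc2a1, Vegfa, Egln1 and Egln3 lie on one side of 0 and passed, while those of Pdk1, Aldoa and Pgk1 spread over both sides.

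The constructs differed from each other in few of these genes. Comparing them asks what the homeodomain of MEIS1 adds, and how the fusion stands against both other forms. MEIS1-WT against MEIS1-deltaHD gave 4 of the 31 higher (background 2.43%) and 1 lower (2.83%), with 9 without overlap (23.1%). Their median difference was 0.13, against 0.03 for all features. MEIS1-WT against M33-MEIS1 gave 0 higher (2.36%) and 1 lower (4.11%) by limma, with 11 without overlap (21.5%) and a median of -0.04 against 0.002. M33-MEIS1 against MEIS1-deltaHD gave 1 higher (0.67%) and 0 lower (0.04%) by limma, with 4 without overlap (16%) and a median of 0.11 against 0.02. At an unadjusted p below 0.05 by limma the counts higher and lower were 10 and 2, then 4 and 4, then 7 and 0 in these 3 comparisons. The share of all features at that threshold was not computed, and the shares above do not apply to it.

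Kdm3a was the clearest of these. The 3 MEIS1-WT arrays (485, 475 and 496) lay above the MEIS1-deltaHD arrays (339, 299 and 381) with no overlap, and Kdm3a was 1.43-fold higher with MEIS1-WT than with MEIS1-deltaHD (0.50 ± 0.092, adjusted p = 0.000811), a call kept under every alternative tried. Ndrg1 was 1.71-fold higher with MEIS1-WT than with MEIS1-deltaHD (0.75 ± 0.15, adjusted p = 0.00242) and 1.78-fold higher with M33-MEIS1 than with MEIS1-deltaHD (0.81 ± 0.15, adjusted p = 0.00656), so its mean fall from control was deepest with MEIS1-deltaHD. Whether the missing homeodomain or the level of the introduced form lies behind this was not tested. Without an intensity trend in the model both Ndrg1 calls were lost, and the second was lost without M33-MEIS1 replicate 3 (0.78) or MEIS1-deltaHD replicate 1 or 2 (0.70 and 0.65), or without the shared probe set types (0.55). Of the 5 Ndrg1 probe sets, 3 passed in the first and 2 in the second comparison. Bhlhe40 was lower with MEIS1-WT than with M33-MEIS1 (-0.53 ± 0.12, adjusted p = 0.00605) and than with MEIS1-deltaHD (-0.44 ± 0.12, adjusted p = 0.0328). The first of these was lost without MEIS1-WT replicate 2 (-0.39) and the second without MEIS1-WT replicate 2 or 3 or MEIS1-deltaHD replicate 1 or 3 (-0.30 to -0.45), under quantile normalization (-0.42) and with no filter. Neither passed with no intensity trend.

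Pdk1 and Slc2a1 were also higher with MEIS1-WT than with MEIS1-deltaHD, Pdk1 by 0.34 ± 0.091 (adjusted p = 0.0261) and Slc2a1 by 0.34 ± 0.10 (adjusted p = 0.0384). The Pdk1 call was lost without MEIS1-WT replicate 1 or 2 or MEIS1-deltaHD replicate 1 or 2 (0.25 to 0.36), and the Slc2a1 call without any 1 of the MEIS1-WT arrays or MEIS1-deltaHD replicate 1 or 2 (0.27 to 0.37). Both were lost under median scaling (0.27 and 0.28), without the shared probe set types (0.11 and 0.27) and with no intensity trend, and that of Slc2a1 also with no filter. Of their kept probe sets, 1 of 4 passed for Pdk1 and 1 of 3 for Slc2a1. For Egln3, Tpi1, Pfkl, Ldha and Vegfa no pair of constructs passed on the probe set used. The other probe set of Egln3 was higher with MEIS1-WT than with M33-MEIS1 (0.46, adjusted p = 0.0204 over all kept probe sets by limma), and Vegfa passed as higher with MEIS1-WT than with MEIS1-deltaHD when MEIS1-deltaHD replicate 3 was left out (0.58, adjusted p = 0.034 by limma). On the probe sets used, Egln3 differed by 0.20 ± 0.075 between MEIS1-WT and MEIS1-deltaHD (adjusted p = 0.153), Tpi1 by 0.10 ± 0.10, Ldha by 0.09 ± 0.072 and Vegfa by 0.39 ± 0.16, which does not show that the constructs act alike on them. The count of higher genes in MEIS1-WT against MEIS1-deltaHD was 2 without MEIS1-WT replicate 1 or 2 or MEIS1-deltaHD replicate 1 or 2 and 7 without MEIS1-deltaHD replicate 3. That in M33-MEIS1 against MEIS1-deltaHD was 0 without MEIS1-deltaHD replicate 1 or 2 or M33-MEIS1 replicate 3 and 3 without MEIS1-deltaHD replicate 3.

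**Figure D4:**
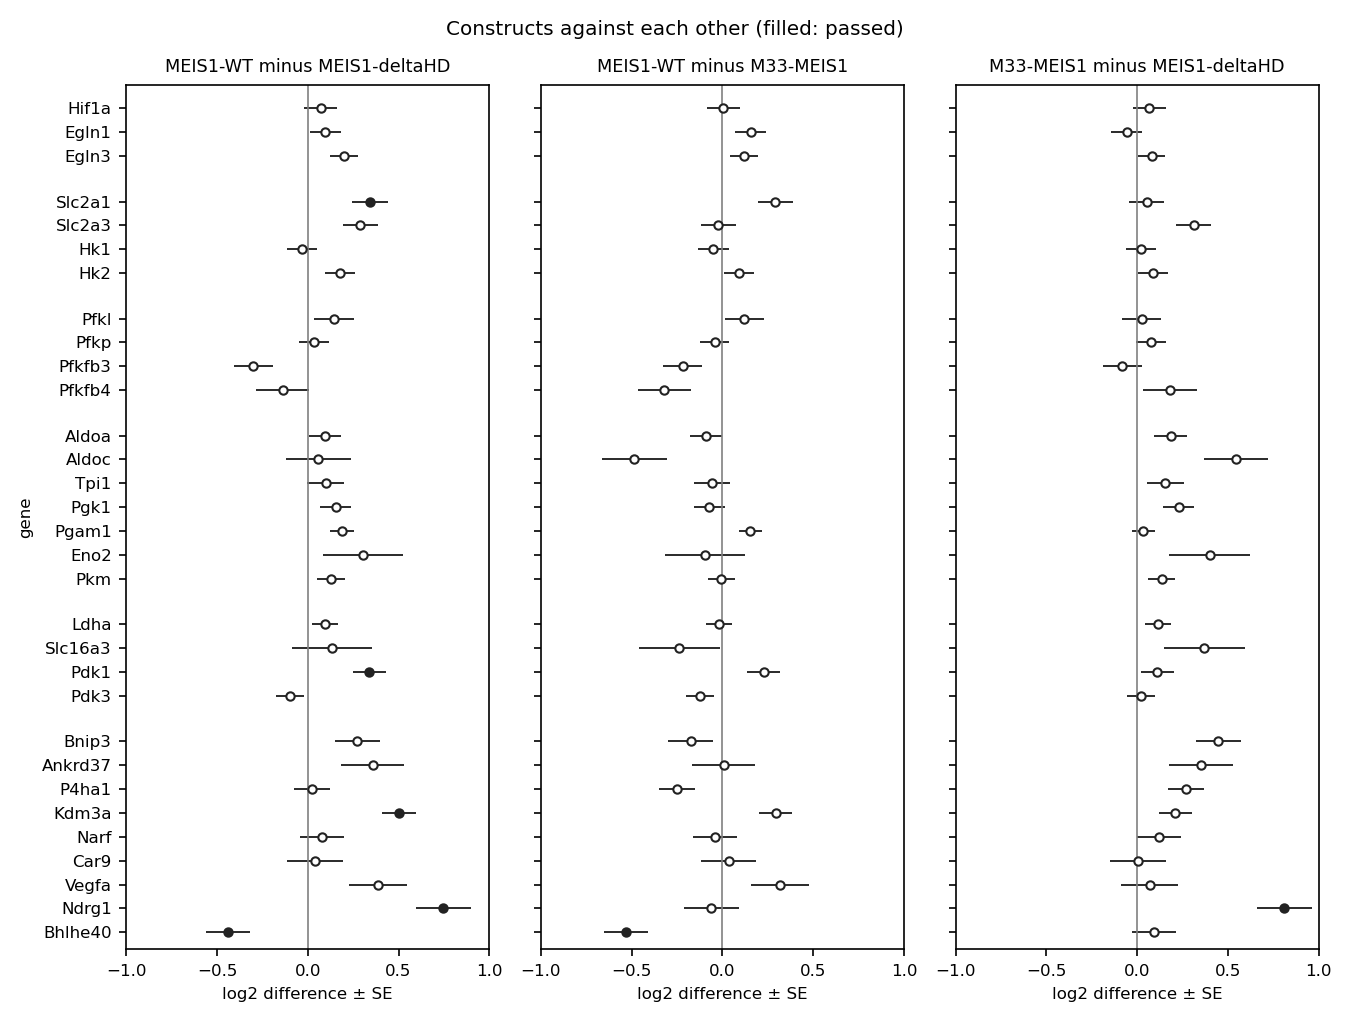
Log2 difference between constructs (x axis, log2(signal + 16), bars ± SE of the model) of the 31 measured genes in 3 panels, with filled points for those that passed. Kdm3a, Ndrg1, Pdk1, Slc2a1 and Bhlhe40 passed in the first panel, Bhlhe40 in the second and Ndrg1 in the third.

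Genes next to these in the same pathways were read from further lists. Of all features 12.4% to 13.8% were called higher and 18.3% to 22.7% lower with a construct. The counts of every further list are to be read against these shares. Of 15 measured HIF partners and regulators, 3, 5 and 4 were higher and 3, 2 and 4 lower under MEIS1-WT, MEIS1-deltaHD and M33-MEIS1, with medians of 0.13, 0.16 and 0.07. Under median scaling 7, 8 and 5 were higher and 1, 0 and 1 lower by limma, but that scaling also turned the calls of all features towards higher. Eloc, the elongin C subunit of the ligase that Vhl guides, was higher by 0.57, 0.66 and 0.62 on the log2 scale. The ubiquitin ligase Siah1a differed by -0.50, -0.60 and -0.73 and the lectin Os9 by -0.57, -0.50 and -0.33, lower and past the threshold each time. Hif3a, a further alpha subunit, differed by 0.07, -0.52 and -0.61 and passed with M33-MEIS1 alone.

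Of 29 other measured HIF targets, 7, 7 and 8 were higher and 8, 10 and 8 lower, with medians of -0.03, -0.09 and -0.12, beside -0.12, -0.17 and -0.13 for all features. Under median scaling 11, 8 and 10 of them were higher and 4, 5 and 3 lower, so the balance of this list turns on the scaling. The mitochondrial adenylate kinase Ak4 (1.47, 1.13 and 1.30) and the mitochondrial protein Fam162a (1.2, 1.02 and 1.22) rose with every construct. The lipid droplet protein Plin2 (-1.18, -0.75 and -0.44) and the nuclear receptor Rora (-0.79, -1.07 and -0.66) fell with every construct. Of 19 other glycolysis genes, 8, 6 and 6 were higher and 3, 2 and 1 lower. The lactate carrier Slc16a1 (0.81, 0.91 and 0.81) and the fructose bisphosphatase Tigar (0.97, 1.17 and 0.94) rose with all 3, the carrier Slc2a6 (-1.15, -1.04 and -0.52) fell with all 3, and the hexokinase of myeloid cells Hk3 differed by -1.16, -0.27 and -0.0034 and passed as lower with MEIS1-WT and MEIS1-deltaHD.

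In the routes that take carbon out of glycolysis, more genes were called higher than lower with each construct. Of 25 genes of pyruvate entry and the citric acid cycle, 15, 15 and 12 were higher and 1 was lower each time, with medians of 0.34, 0.26 and 0.24. Quantile normalization gave 13, 12 and 11 higher, and median scaling 21, 20 and 15. The isocitrate dehydrogenase subunit Idh3a (0.85, 0.99 and 0.88), the succinate dehydrogenase subunit Sdhd (0.51, 0.72 and 0.45), the fumarase Fh1 (0.41, 0.66 and 0.72) and the oxoglutarate dehydrogenase Ogdh (0.50, 0.57 and 0.43) rose with every construct. Of 7 pentose phosphate genes, 4 rose each time: Pgd (0.55, 0.58 and 0.62), Rpia (0.32, 0.35 and 0.44), H6pd (0.41, 0.44 and 0.44) and Pgls (0.26, 0.36 and 0.35). The share of all features called higher, 12.4% to 13.8%, is the figure to read the counts under the authors' scaling against. It does not apply to the counts under the other scalings, whose share was not computed. Under median scaling 67.5% to 70.7% of all calls against control were higher ones.

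The groups also differed in cell type markers and in growth genes, in the same comparisons with control as above. All 9 measured monocyte and macrophage markers were lower with every construct (8 of 9 with MEIS1-deltaHD and M33-MEIS1 under median scaling), and their summed signal ranged from 12053 to 13596 in control, 611 to 739 for MEIS1-WT, 2348 to 2533 for MEIS1-deltaHD and 3631 to 4153 for M33-MEIS1. Lyz2 differed by -5.41, -3.07 and -1.99 and Mpeg1 by -5.27, -2.80 and -2.12, and neither was at 0 in any group mean. Of 11 cell cycle genes, 10 were higher with each construct (8 with MEIS1-WT under quantile normalization), and their summed signal ranged from 11227 to 13611 in control and from 17963 to 20099 with the constructs. Ccne1 differed by 1.55, 1.57 and 1.43 and Cdc6 by 1.52, 1.36 and 1.49. The part of either in the results on hypoxia and glycolysis genes was not tested, and in bulk RNA fewer cells of a type and less RNA per cell cannot be told apart.

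The 10 neutrophil markers gave by limma 0, 6 and 7 higher (also 0 with MEIS1-WT at an unadjusted p below 0.05) and 5, 1 and 1 lower, with Lcn2 at -2.33, -1.65 and -1.61 and Ngp at -0.50, 1.38 and 1.72, and a summed signal of 15084 to 18698 in control, 13837 to 14575 for MEIS1-WT, 21007 to 22439 for MEIS1-deltaHD and 21536 to 25159 for M33-MEIS1. The 8 mast cell and basophil markers gave 1, 2 and 4 higher and 6, 5 and 0 lower by limma (also 0 with M33-MEIS1 unadjusted), with Gzmb at -2.08, -1.80 and 0.12 and Fcer1a at -1.61, -0.73 and -0.23, and sums of 2961 to 4462, 1809 to 1939, 2231 to 2493 and 4731 to 5212. The 7 megakaryocyte markers gave by limma 1, 0 and 1 higher (also 0 with MEIS1-deltaHD unadjusted) and 1, 3 and 1 lower, with Pf4 at 1.36, -0.40 and 0.63 and Ppbp at 0.51, -0.86 and 0.06, and sums of 922 to 1101, 1487 to 2189, 609 to 818 and 1101 to 1579. The E86 producer cells are fibroblasts, and of 6 measured fibroblast markers 1 was lower each time, Pdgfrb (-0.69, -0.89 and -1.08), with sums of 353 to 431 in control and 161 to 265 with the constructs. Of the 7 erythroid markers 2 were measured, Klf1 and Epor, and neither passed, with sums from 26.2 to 58.2 over all arrays. The 7 progenitor markers gave 3, 2 and 2 higher and 3, 2 and 2 lower, with medians of 0.03, -0.004 and 0.005 and sums from 5692 to 6357 over all arrays. Gata2 (-0.51, -0.88 and -0.52) and Spi1 (-0.84, -0.22 and -0.23) had the largest called differences, and the markers called higher are not named here. The part of these markers in the results was not tested.

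Median signal per array was 13.1 to 21.6, with the 3 control arrays (17.4 to 21.6) above all others. Each array was most like an array of its own group except M33-MEIS1 replicate 2, which was most like MEIS1-deltaHD replicate 3 (r = 0.989 across probe sets, which are not independent replicates). The Meis1 probe set used read 187 ± 18.4 in control (SD, n = 3), 141 ± 10.4 for MEIS1-WT, 109.9 ± 9.96 for MEIS1-deltaHD and 117 ± 14.6 for M33-MEIS1, so it did not show the introduced gene. The sources used here do not say whether its probes lie in the part carried by the viruses.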

How the data were processed

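The authors deposited array intensity: 1 linear signal per probe set from GCOS 1.2, per the submitters' processing notes, scaled so that the mean without the lowest and highest 2% of values is 100 on each of 12 arrays, as computed from the values. How background was handled and probes were summarised is not stated there.

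Signals were taken as log2(signal + 16), which understates changes of dim genes. Of 45101 probe sets, 64 controls were dropped, and 31726 above the 40th percentile of their array on at least 3 arrays were kept. The brightest kept probe set with 1 symbol in the platform annotation of 2016 stood for its gene (14005 genes), and the 5985 kept probe sets without a single symbol were tested singly beside them, giving 19990 features. One limma 3.58.1 model (R 4.3.3) with an intensity trend covered the 4 groups, leaving 8 residual degrees of freedom, and was tested on simulated data. Two-sided p-values were adjusted by Benjamini-Hochberg over all features of a comparison, with a threshold of 0.05. An exact rank test of 3 against 3 could not go below 0.1. Genes, lists and alternatives were chosen with earlier results of these data known. Signals of every array are given for the 14 genes with the largest difference in any of 6 comparisons, and neighbouring genes by the largest called difference from control. Alternatives changed the offset, scaling, filter, probe set choice, trend, samples fitted, a replicate block and each array left out.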

Additional observations from a re-analysis of the deposited data

How the results depend on the processing

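Of the calls on single genes, 13 of 19 with MEIS1-WT, 11 of 18 with MEIS1-deltaHD and 13 of 18 with M33-MEIS1 against control were kept under every alternative, and between constructs 1 of 5, 0 of 1 and 0 of 1. Over 1044 alternatives to called genes, 90 fell short of the threshold and 2 reversed: without probe sets of the types that can be shared between transcripts or genes (_a, _s and _x), Pfkl was read from its dim probe set and stood at -0.30 with MEIS1-WT and -0.38 with MEIS1-deltaHD. Of 2064 alternatives to genes not called, 104 changed sign and 49 passed. The median of the genes moved to 0.15 (MEIS1-WT) and 0.10 (M33-MEIS1) with an offset of 64, to 0.15 (MEIS1-WT) with no filter, to 0.099 (MEIS1-WT) and 0.046 (M33-MEIS1) without the shared types, to 0.088 (MEIS1-deltaHD) with quantile normalization, and with median scaling to 0.36, 0.25 and 0.41 against control, 0.062 for MEIS1-WT against MEIS1-deltaHD and 0.043 for M33-MEIS1 against MEIS1-deltaHD. Genes lower with MEIS1-deltaHD numbered 4 with median scaling. For MEIS1-WT against MEIS1-deltaHD, the higher genes numbered 2 with median scaling or without shared types and 1 with no trend, and the lower ones 0 with quantile normalization, no filter or no trend. For MEIS1-WT against M33-MEIS1, higher genes numbered 1 at a filter of the 60th percentile and 2 with only these groups fitted, and lower ones 0 with no trend. For M33-MEIS1 against MEIS1-deltaHD, the higher gene was lost (0) without shared types or with no trend. The cause was not tested. Over all features, deviations from group means did not correlate between same-numbered arrays (r of -0.038 to 0.025, 0 of 18 over 0.1). That check was not made on these genes alone. Replicate 3 was the highest array of every group for Egln3, Tpi1, Ldha, Pkm, Pgk1 and Ankrd37, but not for Pgam1, Pfkl, Bnip3 or Slc2a1. How many of the measured genes share this was not counted. A replicate block gave 1 higher and 2 lower for MEIS1-WT against M33-MEIS1 and 2 higher for M33-MEIS1 against MEIS1-deltaHD. The block changed no other count by over 1.5 times, but the Slc2a1 call between MEIS1-WT and MEIS1-deltaHD was lost under it. With 1 array left out, higher and lower counts ranged from 11 to 13 and 5 to 6 (MEIS1-WT), 10 to 12 and 4 to 9 (MEIS1-deltaHD, 4 lower without MEIS1-deltaHD replicate 2) and 11 to 14 and 4 to 5 (M33-MEIS1) against control, and medians from 0.12 to 0.20, -0.06 to 0.03 and 0.14 to 0.23. Between constructs, MEIS1-WT against MEIS1-deltaHD gave 2 to 7 higher, 0 to 1 lower (0 without MEIS1-WT replicate 2 or 3 or MEIS1-deltaHD replicate 1 or 3) and a median of 0.088 to 0.18. MEIS1-WT against M33-MEIS1 gave 0 to 1 lower (0 without MEIS1-WT replicate 2) and a median of -0.077 to 0.019 (0.019 without M33-MEIS1 replicate 3), and M33-MEIS1 against MEIS1-deltaHD gave 0 to 3 higher and a median of 0.090 to 0.20. The probe sets of Eno2 and Slc16a3 read near or below the offset of 16, which compresses changes on this scale.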
